A study of Mus musculus with 2 samples.

Results

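The cells described here are the G1 cells of B16 F10, a mouse melanoma line that makes melanin, compared between a low pigment and a high pigment sort. They were chosen by the phase given as G1 in the authors' cell table, which rests on measured expression scores, and are 1457 of 4036 cells. The comparison is the ratio of their summed unique molecular identifier (UMI) counts, 1 UMI standing for 1 captured RNA molecule. The low pigment library held 749 G1 cells of 1900, 39.4% with an exact 95% interval of 37.2 to 41.7%. The high pigment library held 708 of 2136, 33.1% with an interval of 31.2 to 35.2%. The other phases served for comparison, with 705 low and 479 high pigment cells called S and 446 low and 949 high pigment cells called G2M.

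Both groups were B16 F10 cells without any other treatment named in the labels, plated at 100 cells per cm2 and kept for 7 days in DMEM rich in glucose, to which 10% fetal bovine serum was added. Flow cytometry separated them by side scatter, which served as the measure of pigment, and each fraction gave 1 single-cell library (10x Genomics, 3′ chemistry, version v3.1), so there was 1 library per group. No test between groups was therefore made, differences were called by size alone, and every interval covers counting error only. Effects of the culture, the sort and the library preparation cannot be told apart from the effect of pigment, and the S and G2M values come from the same pair of libraries.

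G1 is the stretch of the cell cycle between division and the start of DNA replication, in which D-type and E-type cyclins with their kinases inactivate the retinoblastoma family and release E2F factors. Inhibitors such as p21, the product of Cdkn1a, hold a cell in G1. In pigment cells, the transcription factor MITF drives the genes of melanin synthesis, and leaving the cycle often goes with differentiation.

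The phase label rests on the authors' S and G2M scores, per-cell measures of the RNA of S-phase and of G2 and M-phase genes. All 1457 G1 cells had both scores under 0, and 0 other cells did. The levels of cell cycle genes in these cells are thus in part set by the label, and they are given below as a description. The scores differed between the libraries within the label. The median S score was -0.196 in low pigment and -0.176 in high pigment G1 cells, and the median G2M score was -0.292 and -0.204. In 95 low pigment cells (12.7%) and 175 high pigment cells (24.7%) the larger score lay within 0.05 of the limit, as the plot of scores shows. A further 93 low and 176 high pigment cells lay as near on the other side of it.

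**Figure D1:**
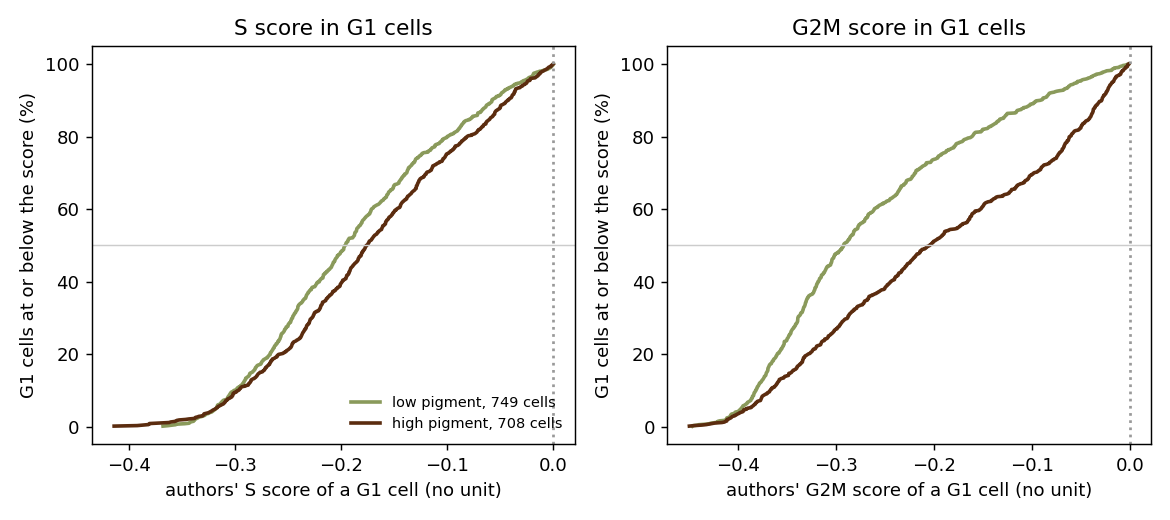
Cumulative share of G1 cells (vertical axis, percent) at or below each value of the authors' S score (left) and G2M score (right), both without unit, for 749 low pigment and 708 high pigment cells; the dotted line is the limit of 0. The high pigment curves lie to the right of the low pigment curves over most of the range, with G2M score medians of -0.204 and -0.292.

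The authors' clusters split the G1 cells by library. In the low pigment library, 719 G1 cells (96.0%) belonged to their cluster 1. In the high pigment library, 466 (65.8%) belonged to cluster 3 and 217 (30.6%) to cluster 0, the cluster that also held 96.0% of its S cells and 88.8% of its G2M cells. The high pigment G1 cells of cluster 0 had a median of 16219 UMIs and a median G2M score of -0.0641, and those of cluster 3 had 9625.5 UMIs and -0.263. Without cluster 0, the log2 ratio of 105 of the 224 named genes left its counting interval. For 6 more, of at least 0.32 in size, it changed sign, and the medians of 9 of the 35 lists moved. Only some of these results are given with both values below. The part that position within the phase played in the results was not tested.

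Low pigment G1 cells gave 10853878 UMIs and high pigment G1 cells 8668091, with medians of 13817 and 10465.5 UMIs and of 3827 and 3221 genes per cell. Mitochondrially encoded genes took a median of 5.78% of UMIs in low and 5.42% in high pigment cells. No barcode was shared between the libraries among the table's cells (0 of 4036). All 7 melanocyte markers were detected in both libraries. Of the markers of other cell types, those of keratinocytes and red blood cells were at 0 UMIs, those of fibroblasts summed to 7 and 21 UMIs and those of leukocytes to 9 and 8. Among endothelial markers Pecam1 had 203 UMIs in low and 32 in high pigment G1 cells, while Cdh5 and Emcn were at 0 in both. The Schwann markers, led by Mbp, summed to 274 and 184 CPM, the usual scaling of counts to a common total.

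Counts were expressed as CPM of the library's G1, S or G2M sum. A gene was taken as measured at a mean of at least 10 CPM over the 6 sums, which left 7854 genes. At a size of 1.5-fold, 323 genes (4.11%) were higher and 752 (9.57%) lower in high pigment G1 cells. For the median gene the log2 ratio was -0.09, so small deficits are near the middle of all genes. Many of the genes that differed in G1 also differed in the rest of the cycle. Of the 323 higher genes, 120 (37.2%, or 1.53% of those measured) were also at least 1.5-fold higher in both S and G2M cells, and of the 752 lower genes, 349 (46.4%, or 4.44% of those measured) were lower in both. A further 77 higher and 197 lower genes passed 1.5-fold in 1 of the other phases. By contrast, 33 genes (0.42% of those measured) were 1.5-fold higher in G1 while within 0.32 of no difference on the log2 scale in S and in G2M, and 49 (0.624%) were lower in G1 alone by the same rule. The same rule found 25 (0.318%) and 29 (0.369%) genes for S alone and 13 (0.166%) and 42 (0.535%) for G2M alone. A log2 ratio of at least 0.32 upward in G1 with at least as much downward in both other phases was found for 7 genes (0.0891%), and the reverse for 2 (0.0255%), Sema6d and Emp1. These counts were not stable in size, and the order of the phases was not either. Between 14 and 74 genes were higher in G1 alone and between 24 and 98 lower over the settings tried. With all cells thinned to 7500 UMIs, 34 and 53 genes were higher and lower in G1 alone, 49 and 50 in S alone and 43 and 75 in G2M alone. Cpe, at a ratio of 1.5, lay just inside the higher limit and Cse1l just outside it, and Psmc5 and Pdia4 lay on either side of the lower limit.

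Over the 3046 genes of at least 50 CPM, the G1 log2 ratio correlated with that in S at a Pearson r of 0.88 and with that in G2M at 0.83. The points are genes of the same pair of libraries and share their depth, so the correlation is a description across genes. The G1 ratio was within 1.5-fold of the S ratio for 98.9% of these genes and within 1.5-fold of the G2M ratio for 97.8%. The 10 genes whose G1 ratio lay furthest above both other phases were all genes of replication or mitosis: Nusap1, Prc1, Spc25, Top2a, Incenp, Cenpf, Sgo1, Kif4, Pclaf and Kif11. The 5 furthest below were Zbtb1, Camk2n2, Phldb3, Apold1 and Cebpb. Phldb3 was nevertheless higher in high pigment G1 cells, at 45.2 and 78.3 CPM, with ratios of 1.73 in G1 and 2.65 and 2.72 in S and G2M.

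**Figure D2:**
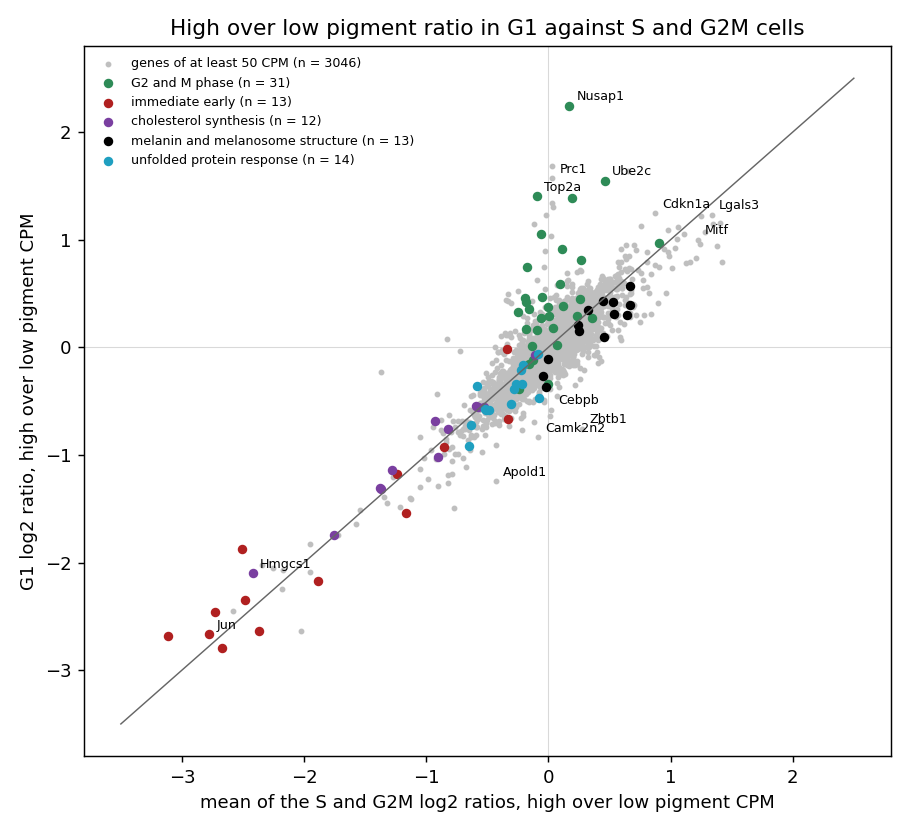
Log2 ratio of high over low pigment CPM in G1 cells (vertical axis) against the mean of the log2 ratios in S and G2M cells (horizontal axis) for 3046 genes of at least 50 CPM; the line marks equal values. Immediate early and cholesterol genes lie near the line at low values, melanin genes lie mostly on or below it, and G2 and M genes such as Nusap1 (2.24 in G1) lie above it.

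Some pigment genes, among them Dct and Tyrp1, were higher in high pigment G1 cells, and others, among them Tyr, were not. Of 17 listed genes of melanin and melanosome structure, 16 were measured. Members of this and the following lists are called higher or lower from a log2 ratio of 0.32 in size. By that rule 5 melanin genes were higher and 2 lower in G1, where 12.4% of all measured genes were higher and 25.8% lower. In S cells 9 were higher and 1 lower (13.6% and 22.2% of all genes) and in G2M cells 8 and 0 (11.3% and 25.8%). Oca2, the member below the minimum, had 26 and 40 UMIs. Together the 16 genes took 16217 CPM in low and 20327 CPM in high pigment G1 cells, and the ratio of these sums was 1.30 in S and 1.33 in G2M cells. Dct, which encodes dopachrome tautomerase, was at 6193 CPM in low and 8367 CPM in high pigment G1 cells, a ratio of 1.35 with an interval of 1.34 to 1.37. Its ratio was 1.34 in S and 1.39 in G2M cells, so the excess of Dct was of like size in each phase. Tyrp1, encoding DHICA oxidase, had a ratio of 1.27 (1806 and 2293 CPM), and Mlana, a melanosome protein needed for PMEL sorting, had 1.34 (1811 and 2429 CPM). Ptgds, a prostaglandin D synthase and not an enzyme of melanin synthesis, showed the highest ratio on the list, 1.49, from 1913 to 2842 CPM. It counts among the 5 higher members. Much of the rise in the list's summed CPM lay in Dct and Ptgds, and both are in the share per cell given below.

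Other pigment genes had lower ratios in G1. Pmel, which encodes the amyloid fibres on which melanin is laid down, was at 1558 CPM in low and 1207 CPM in high pigment G1 cells, a ratio of 0.775 with an interval of 0.756 to 0.794. In S cells the same gene stood at 1405 and 1413 CPM and in G2M cells at 1321 and 1281 CPM, ratios of 1.01 and 0.969. The deficit of Pmel was thus seen in G1, with ratios near 1 in the other phases, although its log2 ratio moved from -0.37 to -0.15 without the authors' cluster 0. Tyr, encoding tyrosinase, the first and rate-limiting enzyme of melanin synthesis, had a G1 ratio of 0.927 (143 and 132 CPM), with an interval of 0.858 to 1.00. Mc1r, the melanocortin receptor that raises cAMP, was at 51.6 and 33.6 CPM in G1, a ratio of 0.651, against 0.710 in S and 0.867 in G2M cells. Cited1, a transcriptional coactivator expressed in melanocytes, had a G1 ratio of 1.07 (interval 0.992 to 1.15) against 1.37 in S and 1.38 in G2M cells. Slc7a11, the cystine transporter, had 1.23 (1.14 to 1.33) against 1.52 and 1.61, and Tspan10, a tetraspanin, had 1.32 (1.21 to 1.43) against 1.58 and 1.60. The counting intervals in G1 lay apart from those in both other phases for Pmel, Cited1, Slc7a11 and Tspan10. The same held for 4.05% of all measured genes and for 8.04% of those of at least 50 CPM.

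The G1 ratio lay below both the S and the G2M ratio for 13 of the 16 melanin genes, compared with 39.4% of all measured genes. The median log2 ratio of the list was 0.18 in G1, 0.39 in S and 0.33 in G2M cells, as the plot of melanin genes shows gene by gene. In the 466 high pigment G1 cells of cluster 3 alone the median was 0.25, and in the 217 of cluster 0 it was 0.09. The number below both phases ranged from 8 to 14 over the settings tried, with 8 among cells of 10000 to 20000 UMIs and 9 without cluster 0. Whether the G1 ratios differ from those of the other phases beyond the spread between libraries was not tested.

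**Figure D3:**
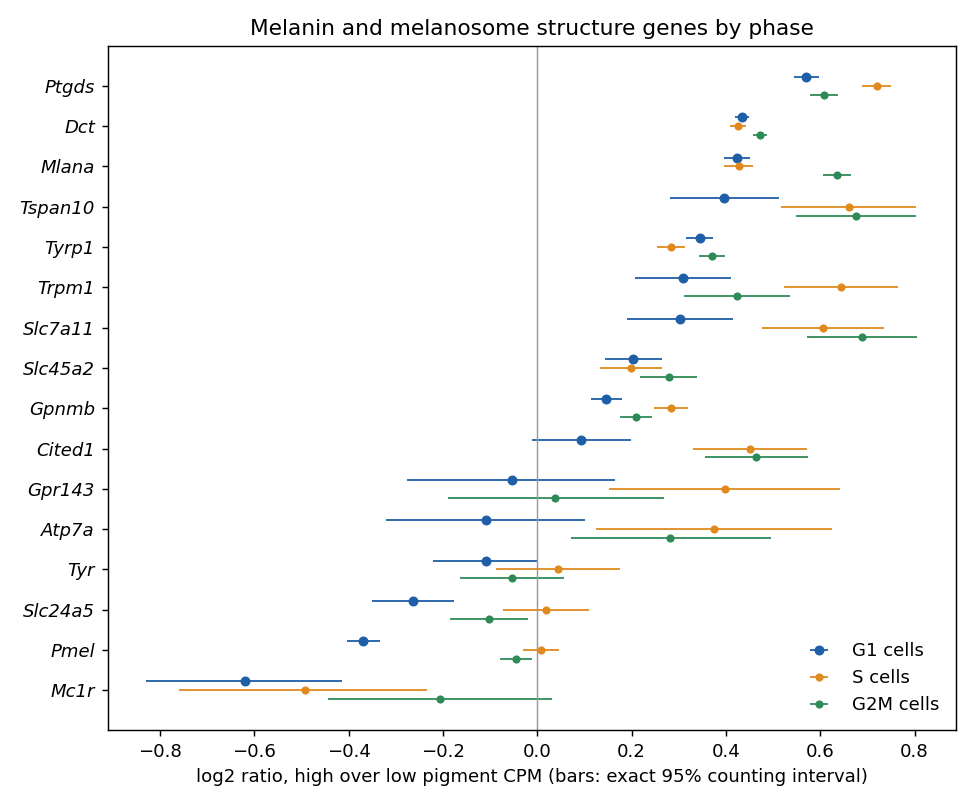
Log2 ratio of high over low pigment CPM (horizontal axis) for the 16 measured genes of melanin and melanosome structure in G1, S and G2M cells; bars are exact 95% counting intervals. Pmel, Cited1, Slc7a11 and Tspan10 have G1 intervals that lie to the left of both other phases, while Dct, Mlana and Tyrp1 overlap with at least 1 of them.

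Per cell, thinned to 7500 UMIs each so that depth was equal, the melanin list took from 0.2 to 3.55% of UMIs in low pigment G1 cells (median 1.57%) and from 0.347 to 4.39% in high pigment G1 cells (median 2.03%). Without thinning the medians were 1.58% and 2.04%. The sorts overlapped widely, and 76.1% of high pigment G1 cells lay above the low pigment median, with an exact interval of 72.8 to 79.2%. The medians in S cells were 1.45% and 1.93%, and in G2M cells 1.39% and 1.87%. G1 cells thus had the largest melanin share of the 3 phases in both libraries.

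The promoter of Dct is shown because Dct carried more UMIs than any other melanin gene. It spans the 250 bases upstream of the RefSeq start in GRCm38.p6, 5′ to 3′ along the gene, with the M-box core CATGTG and its reverse complement in capitals.
Dct (chr14:118052247-118052496, reverse strand): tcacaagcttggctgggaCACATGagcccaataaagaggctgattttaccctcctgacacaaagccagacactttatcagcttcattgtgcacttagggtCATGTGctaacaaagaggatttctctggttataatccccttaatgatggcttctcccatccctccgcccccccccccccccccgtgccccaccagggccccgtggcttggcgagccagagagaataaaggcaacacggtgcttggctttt
The core was found on either strand in 8 of the 12 melanin genes whose promoters are in the RefSeq table, against 12.2% of 27025 mouse promoters and 6.52% of those of measured genes. A match of 6 letters describes the window and does not show binding. The 8 genes with a match, Dct, Mc1r, Slc24a5, Slc7a11, Trpm1, Tspan10, Tyr and Tyrp1, had a median G1 log2 ratio of 0.31, and the others 0.12.

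Of the transcription factors of the melanocyte lineage, 3 of 9 measured members were higher and 4 lower in G1. Mitf, the lineage regulator, was at 260 CPM in low and 519 CPM in high pigment G1 cells, a ratio of 2.0 with an interval of 1.91 to 2.10. Its level in high pigment cells was 429 CPM in S and 531 CPM in G2M, against 177 and 236 CPM in low pigment cells, ratios of 2.42 and 2.25. The excess of Mitf was therefore present in every phase, and its G1 interval lay below those of both others. Sox10, which activates Mitf, was at 128 CPM in low and 217 CPM in high pigment G1 cells, a ratio of 1.70 against 1.94 in S and 1.73 in G2M cells. Tfap2a, a partner of MITF at pigment genes, had a ratio of 1.33. Pax3, a further activator of Mitf, had 0.824 (293 and 242 CPM), and Zeb2, Usf1, Sox5 and Tfe3 were the 4 lower members, at ratios of 0.742, 0.723, 0.677 and 0.590. Lef1 and Tfeb were below the minimum. Mitf was also where the high pigment clusters differed, with a log2 ratio to the low pigment G1 cells of 1.33 in cluster 3 and 0.44 in cluster 0. The log2 ratio of Mitf was 1.27 in S and 1.17 in G2M cells, so the lower G1 ratio was not seen in cluster 3 alone. Over the settings tried the G1 log2 ratio of Mitf ran from 0.81 to 1.30.

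Of 15 measured genes that move melanosomes, 2 were higher and 4 lower in G1, shares near those of all measured genes. The log2 ratio had a median of -0.11 in G1, 0.04 in S and 0.10 in G2M cells. Mlph, the adaptor that links melanosomes to myosin, was at 97.7 CPM in low and 169 CPM in high pigment G1 cells. Rab27a, the GTPase to which it binds, had a G1 ratio of 1.19 and a ratio of 1.53 in each other phase. Rab38, needed to deliver melanin enzymes, was at 207 and 155 CPM in G1, a ratio of 0.748, and at 178 and 172 CPM in G2M. Without cluster 0 the median in G1 was 0.07 and 1 member was lower.

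Of 10 G1 cyclins and kinases, 1 was higher and 3 lower in G1, shares near those of all measured genes. Ccnd1, Ccnd2 and Ccnd3 encode the D-type cyclins that pair with CDK4 and CDK6. Ccnd3 was at 123 CPM in low and 85.3 CPM in high pigment G1 cells, a ratio of 0.691, with 0.677 in S and 0.566 in G2M cells. Ccnd1 had a G1 ratio of 0.804 (228 and 183 CPM). Ccnd2 had 0.916 in G1 (364 and 333 CPM) but 1.15 in S and 1.21 in G2M cells, and its G1 interval of 0.872 to 0.961 lay apart from both. Its G1 log2 ratio changed sign over the settings tried, from -0.14 to 0.08. Ccne1, a cyclin of S-phase entry, had a G1 ratio of 0.553 (37.8 and 20.9 CPM), while Ccne2 had 1.13 with an interval of 0.789 to 1.61. The kinase genes Cdk2, Cdk4 and Cdk6 had ratios of 1.37, 0.865 and 1.06. Myc had 0.670 and Cdc25a, a phosphatase that activates the kinases, had 1.00.

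Among cell cycle inhibitors, 2 of 14 measured members were higher and 4 lower in G1, shares near the 12.4% and 25.8% of all measured genes. Cdkn1a (chr17:29090976-29100727 in mm10) was at 181 CPM in low and 428 CPM in high pigment G1 cells, a ratio of 2.37 with an interval of 2.24 to 2.5. In S cells it was at 290 and 644 CPM, a ratio of 2.23, and in G2M cells at 264 and 397 CPM, a ratio of 1.51. In neither library was Cdkn1a highest in G1. Its log2 ratio stayed between 0.97 and 1.5 over the settings tried. Ccng1, a p53 target, had a G1 ratio of 1.46. Cdkn1b, encoding p27, was at 60.5 and 42.6 CPM, a ratio of 0.703, and Btg1 and Tob1, antiproliferative genes of 1 family, were at ratios of 0.606 and 0.545. Btg2, of the same family, was at 168 and 26.9 CPM, a ratio of 0.160. Cdkn2a and Cdkn2b, the INK4 genes often lost in melanoma lines, had 0 UMIs in both libraries, which allows up to 3 UMIs, or 0.276 CPM in low and 0.346 CPM in high pigment G1 cells.

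Targets of p53 as a list held 6 higher and 3 lower of 14 measured members in G1. Phlda3, an inhibitor of AKT, was at 177 and 274 CPM, a ratio of 1.55, and Eda2r, a receptor of the TNF receptor family, had 2.16. The 3 lower members were Btg2, Rrm2b and Sesn2, and 5 were neither higher nor lower. The median log2 ratio was 0.28 in G1, 0.32 in S and 0.12 in G2M cells. Trp53 itself had a G1 ratio of 0.877.

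**Figure D4:**
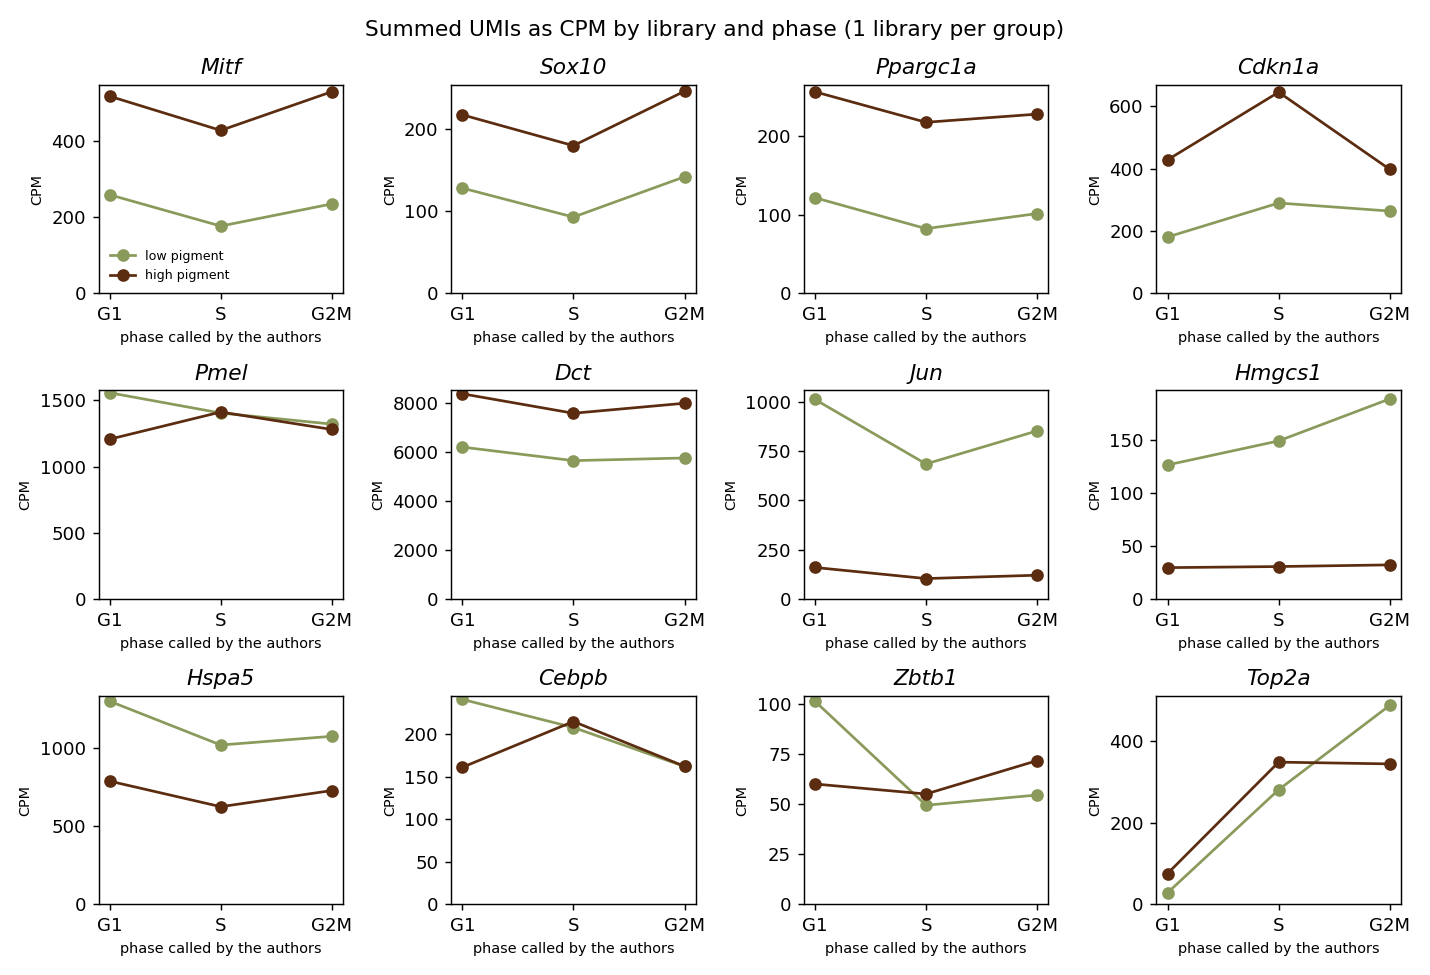
CPM (vertical axes, from 0) of 12 genes in the G1, S and G2M sums of the low and the high pigment library, 1 library per group and so without error bars. Mitf, Sox10, Ppargc1a, Cdkn1a and Dct are higher in high pigment cells in each phase, Jun, Hmgcs1 and Hspa5 lower in each phase, and Cebpb and Zbtb1 differ downward in G1 while Top2a crosses between S and G2M.

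Many of the genes furthest down in high pigment G1 cells were immediate early genes, which cells induce within minutes of a stimulus. Of 18 measured members, 17 were lower and 0 higher, and the median of the log2 ratios was -2.07 in G1, -2.06 in S and -2.21 in G2M cells. Jun (chr4:95049034-95052222), a subunit of AP-1, was at 1013 CPM in low and 160 CPM in high pigment G1 cells, a ratio of 0.158. Fosb had a ratio of 0.144 (118 and 17.1 CPM), Dusp1 0.156 (174 and 27.1 CPM), Fos 0.182 (142 and 25.7 CPM) and Egr1 0.197 (83.2 and 16.4 CPM). Klf6 was the member not lower in G1, at 113 and 112 CPM, with ratios of 0.777 and 0.799 in S and G2M. Per cell, 2.82% of high pigment G1 cells lay above the low pigment median of 0.347%. Cells were trypsinised and sorted before lysis, and the part of handling in these levels was not tested.

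Genes of ERK and cytokine feedback stood close to them in part. Of 12 measured members, 8 were lower and 1 higher in G1, where 25.8% of all measured genes were lower and 12.4% higher. Dusp6 was the higher member, with a log2 ratio between 0.52 and 0.77 over the settings tried. The lowest members are given next. Pim3, Socs1 and Socs3, which are induced by cytokine signalling, had G1 ratios of 0.211, 0.137 and 0.0960, the last with an interval of 0.0577 to 0.151. Socs3 had ratios of 0.201 and 0.183 in S and G2M cells. Arid5a, an RNA-binding protein of inflammatory transcripts, was at 122 and 19.7 CPM in G1, a ratio of 0.161 with an interval of 0.137 to 0.189, against 0.266 in S and 0.228 in G2M cells. The interval of Arid5a in G1 lay apart from both, and its level in low pigment cells was highest in G1, with 71.5 CPM in S and 72.3 CPM in G2M. Sik1, a kinase induced by cAMP that restrains CREB coactivators, had a G1 ratio of 0.183, and Ppargc1a, a MITF target and mitochondrial coactivator on the cAMP list, had 2.11 (122 and 256 CPM).

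FOXO factors and their targets differed in G1 in both directions, with 9 of 11 lower and 2 higher. Txnip, an inhibitor of thioredoxin and glucose uptake, was at 57.5 CPM in low and 6.92 CPM in high pigment G1 cells, 8.31-fold lower, and 0.140 and 0.142 as a ratio in S and G2M. Klf2 had a G1 ratio of 0.139, and Trim63 and Fbxo32, muscle ubiquitin ligases known as FOXO targets, had 2.49 and 2.14. The latter pair had larger ratios outside G1, 3.93 and 2.84 in S and 3.58 and 3.92 in G2M.

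Genes of cholesterol synthesis were lower as a group in every phase. In G1, 19 of 22 measured members were lower and 0 higher, and the log2 ratios had a median of -0.69, against -0.76 in S and -0.91 in G2M. Hmgcs1 (chr13:119690379-119708260), the enzyme that makes HMG-CoA, was at 126 CPM in low and 29.5 CPM in high pigment G1 cells, 4.28-fold lower. The G1 ratio lay above that of both other phases for 14 of the 22 genes, compared with 29.4% of all measured genes, and for 8 with cells thinned to 7500 UMIs. Hsd17b7, a late-step reductase, showed the widest such gap, at 36.5 and 38.2 CPM in G1, 46.3 and 32.4 CPM in S and 53.5 and 32.2 CPM in G2M cells. Fatty acid synthesis followed, with 8 of 11 lower and 0 higher, and Srebf1 at 11.6 and 6.35 CPM.

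**Figure D5:**
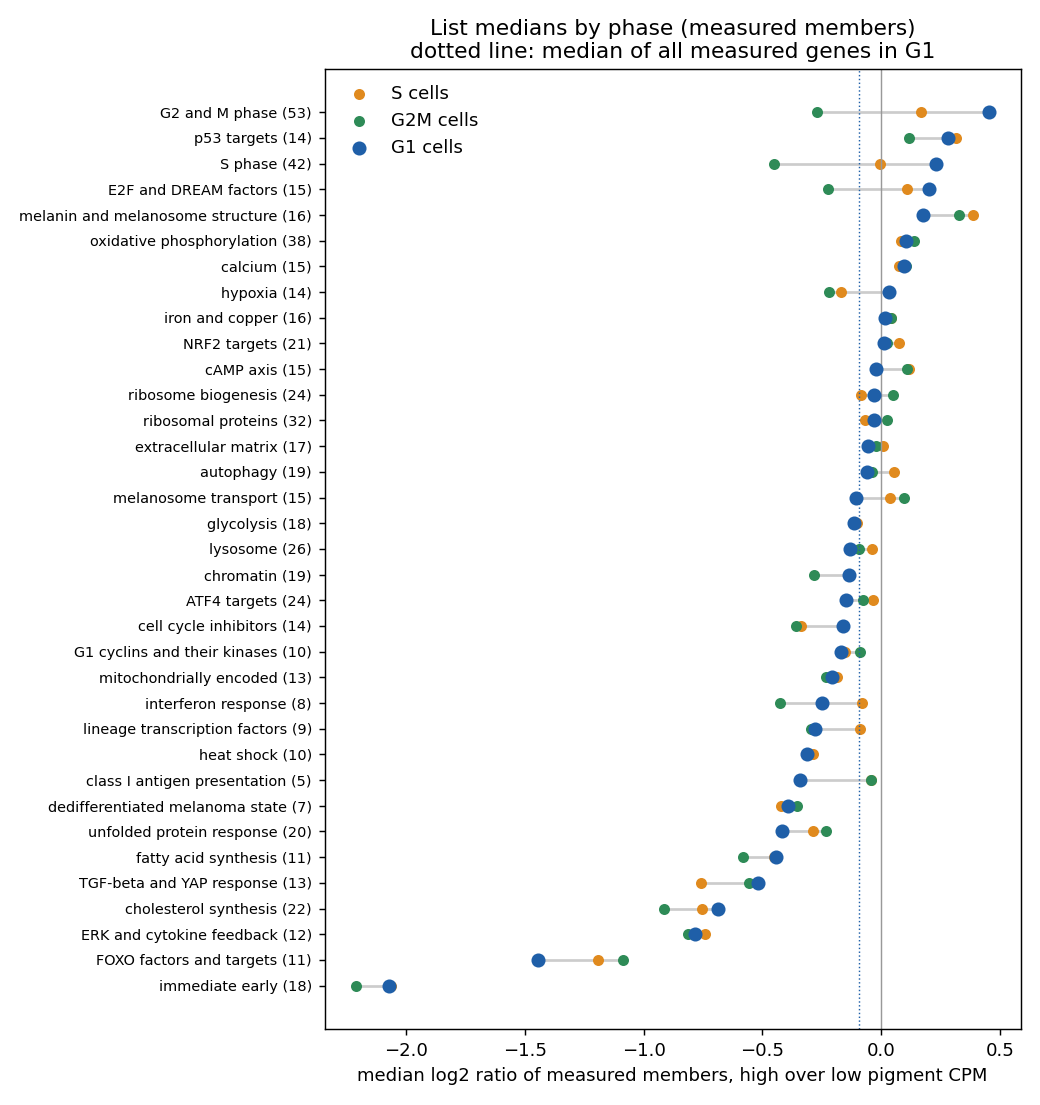
Median log2 ratio of high over low pigment CPM (horizontal axis) over the measured members of 35 gene lists, numbers of members in brackets, in G1, S and G2M cells; the dotted line is the median of all measured genes in G1. Immediate early genes have the lowest medians, near -2.07 in G1, and the G2 and M list shows the widest spread between phases, from 0.45 in G1 to -0.27 in G2M; where points coincide the G1 point covers the others.

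Chaperones of the endoplasmic reticulum formed the group whose G1 count most exceeded those of the other phases among lists without cell cycle genes. Of 20 genes of the unfolded protein response, 15 were lower and 1 higher in G1, against 8 and 6 lower in S and G2M cells. The median log2 ratio was -0.42 in G1, -0.29 in S and -0.23 in G2M. Hspa5, the lumenal chaperone BiP, was at 1300 CPM in low and 789 CPM in high pigment G1 cells, a ratio of 0.607 with an interval of 0.589 to 0.625. It was at 1020 and 626 CPM in S and at 1076 and 729 CPM in G2M cells, so its deficit was present throughout. Pdia6, a disulfide isomerase, was at 399 and 212 CPM in G1, a ratio of 0.531 against 0.627 and 0.648. Syvn1, a ubiquitin ligase of protein degradation at the reticulum, and Dnajc3, a co-chaperone of BiP, had G1 log2 ratios of -0.54 and -0.47, with values between -0.15 and 0.02 in the other phases. Ern1, the stress sensor IRE1, was the higher member, at 14.7 and 21.6 CPM. Creld2 and Manf, both secreted stress proteins, had G1 ratios of 0.889 and 0.955.

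The count moved with the authors' cluster 0. Relative to low pigment G1 cells, 17 of the 20 genes were lower in the 217 high pigment G1 cells of cluster 0 and 7 in the 466 of cluster 3. Without cluster 0, 5 were lower and the median was -0.22, which is not below that of S. The stress element ERSE, CCAAT and CCACG spaced by 9 bases of any kind, was found on either strand in 8 of 17 promoters of the list, against 0.122% of 27025 mouse promoters. The 8 with it had a median G1 log2 ratio of -0.50, and the others -0.36. The promoters of Hspa5, Pdia6 and Creld2 are shown because they carry the element while the genes range from the lowest ratio on the list to one near that of the median gene. They cover the same 250-base window as for Dct, RefSeq on GRCm38.p6, with the element in capitals, which for Creld2 is its reverse complement.
Hspa5 (chr2:34771840-34772089, forward strand): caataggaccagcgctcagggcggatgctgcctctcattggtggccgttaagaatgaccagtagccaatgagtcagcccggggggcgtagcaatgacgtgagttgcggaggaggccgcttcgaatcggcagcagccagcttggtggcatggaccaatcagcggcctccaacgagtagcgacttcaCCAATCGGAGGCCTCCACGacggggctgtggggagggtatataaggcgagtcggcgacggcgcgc
Pdia6 (chr12:17266339-17266588, forward strand): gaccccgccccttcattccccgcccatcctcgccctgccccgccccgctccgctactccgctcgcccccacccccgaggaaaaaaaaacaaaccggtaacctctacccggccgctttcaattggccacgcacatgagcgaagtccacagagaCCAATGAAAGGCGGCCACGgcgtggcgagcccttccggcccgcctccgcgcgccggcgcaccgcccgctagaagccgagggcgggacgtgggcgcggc
Creld2 (chr15:88819396-88819645, forward strand): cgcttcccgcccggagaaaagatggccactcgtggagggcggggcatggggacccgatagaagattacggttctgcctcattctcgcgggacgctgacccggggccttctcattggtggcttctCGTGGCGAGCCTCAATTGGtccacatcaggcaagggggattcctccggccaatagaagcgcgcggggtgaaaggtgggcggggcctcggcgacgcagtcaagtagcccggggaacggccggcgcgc
The element ends 47 bases before the start of Hspa5, 80 before that of Pdia6 and 108 before that of Creld2.

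Most of the highest ratios in G1 belonged to mitotic genes, whose level in G1 is bounded by the phase label. Of 53 measured genes of the G2 and M list, 33 were higher and 3 lower in high pigment G1 cells. In S cells 19 were higher and 1 lower, and in G2M cells 3 were higher and 21 lower. Nusap1 (chr2:119618298-119651244), a spindle protein, was at 5.44 CPM in low and 25.7 CPM in high pigment G1 cells, a ratio of 4.73 with an interval of 3.54 to 6.42. It stood at 37.8 and 55.3 CPM in S and at 142 and 123 CPM in G2M cells, so the G1 levels of both libraries were far below those in G2M. Ube2c, the ubiquitin-conjugating enzyme of the anaphase-promoting complex, was at 39.7 and 116 CPM in G1 and at 430 and 477 CPM in G2M. Top2a, the topoisomerase that untangles chromosomes, was at 28.6 and 75.7 CPM in G1, 282 and 349 CPM in S and 489 and 345 CPM in G2M. Its ratio was 2.65 in G1, 1.24 in S and 0.706 in G2M. Prc1, Cenpf and Sgo1, which act on the spindle and the centromere, had G1 ratios of 2.98, 2.62 and 3.11. Tubb4b and Cdc20 were lower in G1, at ratios of 0.765 and 0.769.

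The ratios differed between the high pigment clusters. In high pigment G1 cells of cluster 0, Nusap1, Top2a and Sgo1 had log2 ratios to low pigment G1 cells of 3.25, 2.33 and 2.63, and in those of cluster 3 of 0.38, -0.09 and -0.13. The median of the list was 0.88 in cluster 0 and 0.09 in cluster 3. Limiting both libraries to G1 cells with both scores under -0.2, 325 low and 229 high pigment cells, left 13 genes higher and 10 lower. Taking instead, in each library, the 50% of G1 cells with the lowest scores left 32 higher and 3 lower, with a median of 0.43. Of the 33 genes higher in G1 alone, 25 were at least 1.5-fold higher in S or G2M than in G1 cells of both libraries, as were 6.28% of all measured genes.

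The promoters of Ube2c and Top2a are shown as those of mitotic genes high on the list that hold the cell cycle homology region CHR, TTTGAA, through which the DREAM complex represses genes in G1. The window is as above, and capitals mark the motif or its reverse complement.
Ube2c (chr2:164769679-164769928, forward strand): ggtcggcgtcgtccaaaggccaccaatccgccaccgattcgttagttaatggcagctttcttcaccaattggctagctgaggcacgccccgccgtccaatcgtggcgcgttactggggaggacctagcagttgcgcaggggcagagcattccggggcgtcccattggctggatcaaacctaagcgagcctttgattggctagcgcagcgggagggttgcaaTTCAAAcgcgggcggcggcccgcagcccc
Top2a (chr11:99024190-99024439, reverse strand): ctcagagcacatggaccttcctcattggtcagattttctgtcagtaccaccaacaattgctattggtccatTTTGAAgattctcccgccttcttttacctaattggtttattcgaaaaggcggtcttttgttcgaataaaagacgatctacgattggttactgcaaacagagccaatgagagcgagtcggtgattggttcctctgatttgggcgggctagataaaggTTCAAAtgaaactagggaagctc
The motif lay on either strand of 19 of the 46 promoters found for the G2 and M list, against 16.3% of all 27025 promoters and 10.2% of those of measured genes. The 19 genes had a median G1 log2 ratio of 0.59 and the others of 0.45. Of the E2F and DREAM factors themselves, 5 of 15 were higher and 0 lower in G1, with Mybl2 at 6.45 and 9.92 CPM, and 1 was higher when phases were called anew.

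Replication genes were divided. Of 42 measured members of the S phase list, 17 were higher and 5 lower in high pigment G1 cells, against 1 higher and 25 lower in G2M cells. Fen1, the flap endonuclease, was at 6.54 and 17.8 CPM in G1, a ratio of 2.72, and Rad51ap1, a recombination factor, was at 13.5 and 27.5 CPM. Slbp, which binds histone mRNA, was at 154 and 64.0 CPM in G1, a ratio of 0.417, against 0.751 in S and 0.425 in G2M. Without cluster 0, 2 members were higher and 15 lower.

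None of the 49 genes lower in G1 alone (0 of 49) was at least 1.5-fold higher in S or G2M than in G1 cells of both libraries. That share was small among all measured genes too, at 6.28%, and among the 752 genes lower in G1 it was 3.59%. By gap to the nearer of the other phases, the gene furthest below was Zbtb1 (chr12:76370266-76396950), a zinc finger transcription factor. It was at 101 CPM in low and 60.0 CPM in high pigment G1 cells, a ratio of 0.592 with an interval of 0.533 to 0.658. In S cells it was at 49.4 and 55.0 CPM and in G2M cells at 54.5 and 71.6 CPM, ratios of 1.11 and 1.31. The high G1 level was thus on the low pigment side. Cebpb (chr2:167688915-167690418), a leucine zipper factor of stress and inflammation, was at 241 and 161 CPM in G1, 208 and 215 CPM in S and 162 and 162 CPM in G2M. Its G1 ratio was 0.668 (0.626 to 0.714) and the others 1.03 and 1.00. Camk2d, a calcium and calmodulin-dependent kinase, was at 259 and 160 CPM in G1, a ratio of 0.618, against 0.902 and 0.937. Camk2n2, an inhibitor of that kinase family, had 0.559 (73.6 and 41.2 CPM) against 0.954 and 0.934. Apold1, had 0.422 (105 and 44.5 CPM) against 0.635 and 0.870.

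These genes were chosen by the size of their G1 ratio relative to the other phases, so the gap is a description. Over the settings tried the log2 ratio in G1 stayed between -0.84 and -0.52 for Zbtb1, between -0.65 and -0.41 for Cebpb and between -0.76 and -0.44 for Camk2d. Both high pigment clusters showed it, with log2 ratios of -1.20 and -0.55 for Zbtb1 and of -0.72 and -0.52 for Cebpb in clusters 0 and 3. Of the genes lower in G1 alone by the size rule, 7 had at least 50 CPM: Ntmt1, Camk2d, Atf5, 9330188P03Rik, Dap, Camk2n2 and Epc1. Zbtb1 and Cebpb fell outside that rule, Zbtb1 because of its ratio in G2M and Cebpb because its G1 deficit was just under 1.5-fold.

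Other groups whose G1 median differed from those of the other phases were small. Of 5 measured class I antigen presentation genes, 3 were lower in G1 and 2 in each other phase. The median log2 ratio was -0.34 in G1, against -0.04 in each other phase. A median of 5 is the value of 1 gene, and over the settings tried it ran from -0.66 to -0.12. H2-D1, a class I heavy chain, was at 70.8 and 37.6 CPM in G1, a ratio of 0.532 with an interval of 0.465 to 0.606. Its ratio was 0.720 in S and 0.643 in G2M cells, and its G1 interval did not lie apart from both. B2m, the light chain, had 0.906. Hypoxia genes went the other way, with 4 of 14 higher and 3 lower and a median of 0.03 in G1 against -0.17 in S and -0.22 in G2M. Higd1a, a mitochondrial survival protein, was at 201 and 378 CPM in G1, a ratio of 1.88 against 1.48 and 1.54. Bnip3, a receptor for mitophagy, was at 39.2 and 65.9 CPM, a ratio of 1.68 against 1.28 and 1.12. Vegfa, the vascular growth factor, was 1.80-fold lower in G1, so the list did not move as a whole.

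Among NRF2 targets, 5 of 21 were higher and 4 lower in G1. Hmox1, heme oxygenase, was at 159 and 371 CPM, a ratio of 2.34 with 2.75 in S and 2.04 in G2M, and Gclm, a subunit of the enzyme that starts glutathione synthesis, was at 238 and 450 CPM. Tkt, transketolase, had a G1 ratio of 0.602. Lgals3, a galectin on the extracellular matrix list, was at 347 and 814 CPM, a ratio of 2.35. Of the 17 measured members of that list, 6 were higher and 6 lower in G1, with a median log2 ratio of -0.06. Over all measured genes 12.4% were higher and 25.8% lower. The members of the list together took 3720 CPM in low and 5113 CPM in high pigment G1 cells. Of 24 ATF4 targets, 2 were higher and 10 lower, with Phgdh, the first enzyme of serine synthesis, 1.76-fold lower and Eif4ebp1, a translation repressor, at 433 and 632 CPM. Of 38 genes of oxidative phosphorylation, 10 were higher and 4 lower, with a median of 0.11, and Cox7a2, a subunit of complex IV, was at 920 and 1387 CPM. Relative to low pigment G1 cells, 16 of the 38 were higher and 8 lower in high pigment G1 cells of cluster 0. In those of cluster 3, 2 were higher and 3 lower. None of the 18 glycolysis genes was higher (0 higher, 1 lower). By cluster, 0 were higher and 8 lower in cluster 0, and 2 and 0 in cluster 3.

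Of 26 lysosomal genes, 2 were higher and 4 lower in G1, where 12.4% of all measured genes were higher and 25.8% lower. The G1 ratio lay below both other phases for 19 of them, compared with 39.4% of all measured genes. Without cluster 0 it did so for 8. Ctsz, a cathepsin, was at 580 and 388 CPM. Of 10 heat shock genes 4 were lower and 0 higher, with Hspa8, a constitutive chaperone, at 1654 and 973 CPM. Ribosomal protein genes were nearly level, with 1 of 32 higher and 3 lower. All lists and phases are compared in the plot of list medians. The differences between phases were not tested for any list.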

How the data were processed

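Per the submitters' processing notes, the authors used Cell Ranger 6.1.2 and mm10. The deposited files hold whole-number UMI counts per gene and cell for 5818 barcodes, and a table of 4036 cells with counts, the percent of mitochondrial UMIs, S and G2M scores, phase and cluster, all by the authors. Not given in the sources used here are whether depth was equalised between libraries, how reads matching several genes were counted and which genes made up the phase scores.

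Counts were summed per library and phase and scaled to CPM. Ratios of high over low carry exact conditional binomial 95% intervals, and no p-value was computed because each group had 1 library. Differences were called by size, 1.5-fold for genes and 0.32 on the log2 scale for list members. Genes named were, at 50 CPM or more, the 12 largest and smallest G1 ratios and the 10 widest gaps between phases in each direction, up to 3 largest and 2 smallest ratios per list, and the melanin, lineage, cyclin and inhibitor lists in full. Others named in the text, among them Pecam1, Trp53, Dap and the 9 genes of opposite direction, were chosen after their values were seen. The members and lists were chosen with earlier results of these data known. For per-cell shares every cell was thinned to 7500 UMIs with seed 1. Scrublet (expected rate 0.06) marked 20 cells, too few to show that doublets were found, and they were kept. Coordinates are mm10 from GENCODE, and promoters are RefSeq on GRCm38.p6. Also looked for were a sterol element, TCACCCCAC, and the CRE, TGACGTCA. The first was in 1 of 16 promoters of cholesterol genes and in 0.490% of those of measured genes. The second was in 2 of 15 promoters of immediate early genes and in 3.18% of those of measured genes. Python 3.11.15, numpy 2.4.6, scipy 1.17.1, pandas 2.3.3 and scanpy 1.11.5 were used, and the scripts were tested on simulated data. Values of 2 list members are not reported here.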

Additional observations from a re-analysis of the deposited data

Results flagged for a closer look

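For 9 genes the ratio of high over low pigment ran one way in G1 and the other way in both S and G2M cells, each by at least 0.32 on the log2 scale. The difference between phases was not tested. Of the measured genes, 7 (0.0891%) were higher in G1 and 2 (0.0255%) lower. The 7 were all low in G1, with 25 to 95 UMIs in the low pigment library. Kif14, a mitotic kinesin, had a log2 ratio of 0.966 in G1, -0.40 in S and -0.90 in G2M, from 25 and 39 UMIs in G1. Mxd3, a MYC antagonist partner of MAX, had 0.739, and Melk, a mitotic kinase, 0.684. Stil, a centriole gene, had 0.663, with an interval of its ratio from 0.987 to 2.56. Pimreg, Asf1b and Mastl, which act in mitosis or on histones, had 0.563, 0.398 and 0.324. The 2 lower genes were Sema6d, a semaphorin, at -0.33 in G1, 0.34 in S and 0.87 in G2M, and Emp1, a membrane protein, at -0.382, 0.46 and 0.93. The interval of Sema6d in G1 ran from 0.619 to 1.02. The G1 interval lay apart from both others for 7 of the 9 genes, compared with 4.05% of all measured genes. The 9 genes were chosen for opposite ratios, so this separation is in part set by the choice. All 7 higher genes were at least 1.5-fold higher in S or G2M than in G1 cells of both libraries. The level of such genes in G1 is in part set by the phase label.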

How the results depend on the processing

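No paired analysis was possible because each group had 1 library, and no replicate could be left out. Removing marked doublets and thinning cells before summing kept the counts of genes by size, in G1 alone and of opposite direction within 1.5 times. With thinning, the genes in S alone went from 25 and 29 to 49 and 50 and those in G2M alone from 13 and 42 to 43 and 75. The following moved, against 323 higher and 752 lower genes by size, 33 and 49 in G1 alone, 7 and 2 of opposite direction, and median melanin shares of 1.57% and 2.03%. The cause was not tested.

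With phases called anew by scanpy, which kept 574 of 749 low and 396 of 708 high pigment cells in G1, 4 lower genes were opposite and the shares were 1.61% and 2.04%. In the 50% of G1 cells with the lowest scores, 69 genes were higher in G1 alone and 16 opposite, with shares of 1.72% and 2.04%. In cells of 10000 to 20000 UMIs, 58 and 87 genes differed in G1 alone, 0 lower genes were opposite, and the shares were 1.55% and 2.06%. After scaling so that the median gene had no difference, the counts in G1 alone were 50 and 24, 0 lower genes were opposite, and 470 genes were higher and 550 lower by size, 46.1% higher against 30.0%. With a minimum of 2 CPM, 634 and 1527 genes differed by size, 64 and 98 in G1 alone, and 35 and 12 were opposite. With per-cell CPM, 4 and 0 were opposite. Under 7% mitochondrial UMIs, 1 lower gene was opposite, with shares of 1.51% and 2.01%. Totals without immediate early and mitochondrial genes gave shares of 1.67% and 2.15%.

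The other alternatives were chosen after seeing the data. With both scores under -0.2, 74 and 97 genes differed in G1 alone, 18 and 4 were opposite, and the shares were 1.72% and 2.15%. Without cluster 0, 14 genes were higher in G1 alone, 4 higher genes were opposite, and the high pigment share was 2.01%. Among named genes with a log2 ratio of at least 0.32 in size, the ratio turned negative with scanpy phases for Dnmt1 (-0.12), Mybl2 (-0.044), Exo1 (-0.39) and Rad51ap1 (-0.26), under the score limit for Incenp (-0.15), and without cluster 0 for E2f8 (-0.58), Mybl2 (-0.35), Exo1 (-0.42), Rad51ap1 (-0.85), Top2a (-0.014) and Sgo1 (-0.11). Smaller ratios also changed sign, such as those of Ccne2 (-0.89 to 0.42 over the settings), Cited1 (-0.15 to 0.25) and Tyr (-0.12 to 0.14). Depth limited a G1 ratio to within a median factor of 1.17 either way over the measured genes.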
